A study of Homo sapiens with 2 samples.

Results

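The cornified envelope genes described here were 10 genes taken by symbol from the 36601 genes of the count tables. They were SPRR1A, SPRR1B, SPRR2A, SPRR2D, SPRR2E and SPRR3 of the small proline-rich protein family, IVL (involucrin), TGM1 (transglutaminase), SBSN (suprabasin) and KRTDAP (keratinocyte differentiation-associated protein). The rule of choice used no measured value, but the genes were chosen with earlier results of these data known. All 10 had unique molecular identifiers (UMIs) in both libraries. Cells of RWPE-ERG-mAKT, the RWPE1 line given ERG and myristoylated AKT, were set against RWPE1 with the empty vector. RWPE1 is an immortalized line from normal prostate epithelium, ERG is an ETS family transcription factor that gene fusions bring into prostate cancer cells, and the myristoyl anchor keeps AKT active at the membrane. Both genes were delivered by retroviral plasmids, with ERG under the HNRNPA2B1 promoter, and whether either line was 1 clone is not given in the sources used here. Each condition was 1 library, so no test between conditions could be made, and the 95% intervals cover counting error only.

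The cornified envelope is the protein shell that replaces the inner face of the plasma membrane in squamous cells as they complete differentiation. Its precursors, such as involucrin and the small proline-rich proteins, are joined by transglutaminases into a layer that lipids then coat. The glandular epithelium of the prostate does not normally build such a shell, whereas squamous change in prostate tissue and in cultured prostate epithelium brings these genes on.

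Levels were read in cells with over 2500 detected genes and under 7.5% mitochondrial UMIs, which were 14140 of 17355 barcodes in RWPE-ERG-mAKT (225121037 UMIs) and 9967 of 12504 in RWPE1 (192789925 UMIs). Median depth per cell was 13601 UMIs in RWPE-ERG-mAKT and 16972 UMIs in RWPE1, so shares of cells were compared after each cell was thinned to 5000 UMIs. The methods of the study name 200 to 2500 genes as limits, and those shallower cells are described apart. ERG stood at 20.8 CPM (UMIs per 1000000 UMIs of the library) in RWPE-ERG-mAKT and at 1.44 CPM in RWPE1, in the direction of the labels. AKT1 stood at 19.1 CPM in RWPE-ERG-mAKT and 22.0 CPM in RWPE1, and 3' counting may not see the introduced copy. Both libraries carried the epithelial genes the line should have, and the basal list summed to 5310 CPM in RWPE-ERG-mAKT and 5177 CPM in RWPE1. The libraries shared 55 cell barcodes, 37 of them among the cells kept in both.

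Of the genes, 7 lie next to each other on chromosome 1, in the epidermal differentiation complex. By GENCODE 29 on GRCh38, IVL began at chromosome 1 position 152908545, and SPRR1A, SPRR3, SPRR1B, SPRR2D, SPRR2A and SPRR2E followed within 242 kb up to the end of SPRR2G at 153150869. The 6 other annotated genes in this stretch (LINC01527, SPRR5, SPRR4, SPRR2B, SPRR2F and SPRR2G) had at most 65 UMIs over both libraries. TGM1 lies on chromosome 14 (24249114 to 24264432, minus strand). SBSN (35523367 to 35528351) and KRTDAP (35487324 to 35495558) lie on the minus strand of chromosome 19 on either side of DMKN, which begins 1661 bases beyond KRTDAP. Of the 311 windows of 90 bases at the 3' end of each of the SPRR2A, SPRR2D and SPRR2E transcripts, 0 occurred in the transcripts of another gene, so counts of these close relatives were separable by sequence. The SPRR1A model of GENCODE 29 held 270 bases and began 1150 bases after the RefSeq start, so its counts may miss reads, and the annotation used for counting is not given in the sources used here.

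The promoters of 4 of these genes are shown because the genes lie in 1 complex and stood on opposite sides of RWPE1: SPRR1B and SPRR2A were higher in RWPE-ERG-mAKT, and SPRR3 and IVL were lower. Each line is the 250 bases before the RefSeq start on GRCh38.p14, on the strand of the gene (SPRR1B chr1:153030953-153031202 plus, SPRR2A chr1:153057513-153057762 minus, SPRR3 chr1:153001499-153001748 plus, IVL chr1:152908296-152908545 plus). Capitals mark the AP-1 letters TGANTCA and the ETS letters AGGAAG, each searched on both strands, and in IVL 1 match of each overlaps.
SPRR1B: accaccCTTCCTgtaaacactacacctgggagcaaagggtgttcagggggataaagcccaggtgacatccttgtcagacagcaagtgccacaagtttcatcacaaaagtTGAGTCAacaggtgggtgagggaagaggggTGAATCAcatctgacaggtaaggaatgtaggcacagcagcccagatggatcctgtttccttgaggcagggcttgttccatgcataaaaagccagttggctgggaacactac
SPRR2A: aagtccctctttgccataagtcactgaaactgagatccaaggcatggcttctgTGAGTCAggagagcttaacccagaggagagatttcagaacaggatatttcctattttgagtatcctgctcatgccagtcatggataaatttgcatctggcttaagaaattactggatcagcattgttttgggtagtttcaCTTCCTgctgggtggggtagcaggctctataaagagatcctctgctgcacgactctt
SPRR3: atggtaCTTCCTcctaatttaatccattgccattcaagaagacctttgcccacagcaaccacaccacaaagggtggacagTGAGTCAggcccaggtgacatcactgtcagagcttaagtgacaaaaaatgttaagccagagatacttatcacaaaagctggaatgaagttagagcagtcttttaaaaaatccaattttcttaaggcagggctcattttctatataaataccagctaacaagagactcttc
IVL: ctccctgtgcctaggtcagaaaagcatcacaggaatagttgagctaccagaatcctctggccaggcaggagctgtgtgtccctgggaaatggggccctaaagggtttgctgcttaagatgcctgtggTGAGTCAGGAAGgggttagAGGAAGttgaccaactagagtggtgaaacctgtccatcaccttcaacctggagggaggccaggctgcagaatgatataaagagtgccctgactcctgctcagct
AP-1 is the dimer of FOS and JUN proteins long known to act on the involucrin and SPRR promoters, and AGGAAG is a core that ETS factors such as ERG can bind. Of the 10 genes, 7 had a promoter among the RefSeq sequences used, and SPRR2D, SPRR2E and TGM1 had none there. The AP-1 letters stood in 7 of these 7 windows, against 6.57% of 35116 windows of the same length before all genes. The ETS letters stood in 5 of 7 windows (SPRR1B, SPRR2A, SPRR3, IVL and SBSN), against 28.7% of all windows. Genes on both sides of RWPE1 held both sets of letters. The letters were chosen after the sequences were seen, and a match is a description and not a bound site.

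RWPE-ERG-mAKT held more UMIs of the SPRR1B and SPRR2 genes than RWPE1 and fewer of SPRR3, IVL, TGM1 and SBSN. Over all 10 genes the level was 56.8 CPM in RWPE-ERG-mAKT (12777 UMIs) and 36.2 CPM in RWPE1 (6986 UMIs). RWPE-ERG-mAKT held 4 of the genes at more than 2 times the RWPE1 level, where 11.5% of the 19960 genes with at least 50 UMIs over both libraries stood so. It held 4 at a level lower by more than 2-fold, where 20.2% of those genes stood so. The log2 ratio (RWPE-ERG-mAKT over RWPE1) had a median of −0.28 over the 10 genes and −0.17 over all genes tested. Scaling by median of ratios in place of totals moved every log2 ratio up by 0.22, which took IVL to −0.90 and left the other 7 past 2-fold in the same direction. Under it, 3145 genes were higher and 3057 lower by more than 2-fold, in place of 2290 and 4022.

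**Figure D1:**
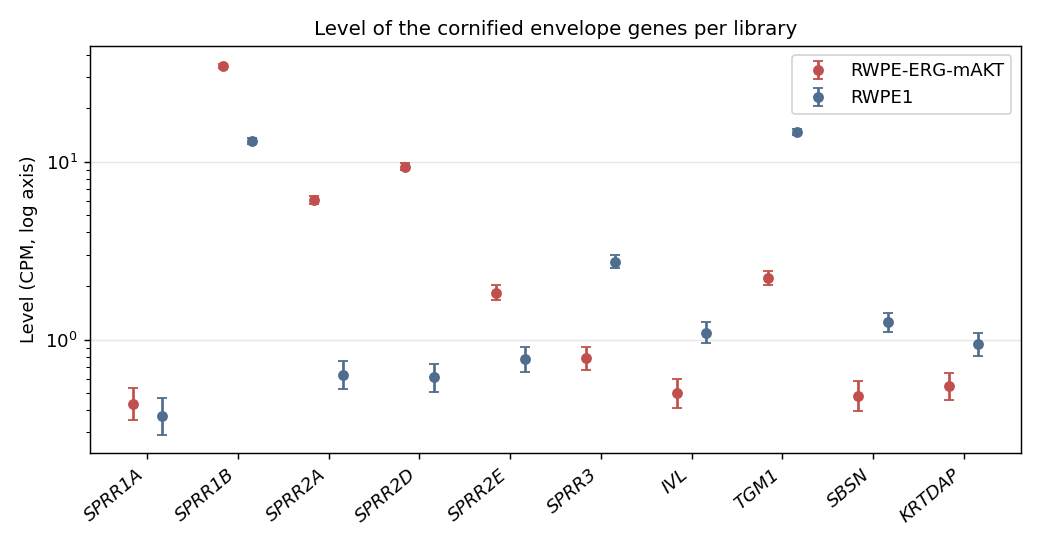
Level of each of the 10 genes in RWPE-ERG-mAKT and RWPE1, as CPM of the UMIs summed over the cells with over 2500 genes, on a log axis, 1 library each. Bars are exact Poisson 95% intervals of counting error. SPRR1B, SPRR2A, SPRR2D and SPRR2E lie higher in RWPE-ERG-mAKT, SPRR3, IVL, TGM1, SBSN and KRTDAP lie lower, and the intervals of SPRR1A overlap.

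Of the small proline-rich precursors, SPRR1B was the most abundant in RWPE-ERG-mAKT. It had 7762 UMIs in RWPE-ERG-mAKT (34.5 CPM, 33.7 to 35.3) and 2536 UMIs in RWPE1 (13.2 CPM, 12.6 to 13.7), a log2 ratio of 1.39 (1.33 to 1.46). At 5000 UMIs per cell, SPRR1B was found in 9.12% of RWPE-ERG-mAKT cells (8.65 to 9.61) and in 2.16% of RWPE1 cells (1.88 to 2.46). The share thus differed more, 4.23-fold, than the level, since a positive RWPE1 cell held more UMIs. Unthinned, a positive cell held a mean of 2.91 UMIs in RWPE-ERG-mAKT and 6.16 UMIs in RWPE1. SPRR1A, its closest relative, had 98 UMIs in RWPE-ERG-mAKT and 72 UMIs in RWPE1, a log2 ratio of 0.22 (−0.23 to 0.68) that counting error does not set apart from 0.

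The SPRR2 genes, near relatives whose proteins bridge other precursors in the envelope, were each under 1 CPM in RWPE1. SPRR2D had 2110 UMIs in RWPE-ERG-mAKT (9.37 CPM) and 118 UMIs in RWPE1 (0.612 CPM), 15.3-fold higher, with a log2 ratio of 3.94 (3.67 to 4.22). SPRR2A had 1371 UMIs in RWPE-ERG-mAKT (6.09 CPM) and 122 UMIs in RWPE1 (0.633 CPM), 9.62-fold higher, with a log2 ratio of 3.27 (3.0 to 3.55). In shares of cells at 5000 UMIs, SPRR2D was in 2.47% of RWPE-ERG-mAKT cells (2.22 to 2.74) and 0.261% of RWPE1 cells (0.171 to 0.382). For SPRR2A the shares were 1.39% in RWPE-ERG-mAKT (1.21 to 1.60) and 0.231% in RWPE1 (0.146 to 0.346). SPRR2E had 413 UMIs in RWPE-ERG-mAKT and 149 UMIs in RWPE1, a log2 ratio of 1.25 (0.97 to 1.53), and its counts came from few cells. In RWPE1 17 cells held SPRR2E, and 95.3% of its UMIs lay in 10 of them, whereas in RWPE-ERG-mAKT 111 cells held it and 10 of them had 69.0%. Without the 10 cells richest in the gene in each library the log2 ratio of SPRR2E was 3.97, that of SPRR2A 4.65 and that of SPRR2D 4.70.

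SPRR3 ran the other way. It had 177 UMIs in RWPE-ERG-mAKT (0.786 CPM) and 528 UMIs in RWPE1 (2.74 CPM), a log2 ratio of −1.80 (−2.05 to −1.55). Unthinned, 18 RWPE-ERG-mAKT cells and 64 RWPE1 cells held it, and at 5000 UMIs the shares were 0.0849% in RWPE-ERG-mAKT (0.0439 to 0.148) and 0.391% in RWPE1 (0.278 to 0.535). The 10 richest cells held 95.5% of its UMIs in RWPE-ERG-mAKT and 67.8% in RWPE1, and without them the log2 ratio was −4.63. Among the genes of 1 family in 1 complex, SPRR3 thus stood opposite to SPRR1B and the SPRR2 genes both in level and in the share of cells.

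IVL, the precursor laid down first and used as a scaffold, was low in both libraries. It had 113 UMIs in RWPE-ERG-mAKT (0.502 CPM) and 211 UMIs in RWPE1 (1.09 CPM), a log2 ratio of −1.12 (−1.47 to −0.79). Its share of cells at 5000 UMIs was 0.198% in RWPE-ERG-mAKT (0.132 to 0.286) and 0.271% in RWPE1 (0.179 to 0.394), a ratio of 0.73 (0.42 to 1.29). The lower level of IVL therefore lay in a few cells: the richest held 10 UMIs in RWPE-ERG-mAKT and 54 UMIs in RWPE1. Without the 10 richest cells of each library the log2 ratio of IVL was 0.085.

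TGM1, the membrane-bound enzyme that crosslinks the precursors, differed most among the genes that were lower. It had 501 UMIs in RWPE-ERG-mAKT (2.23 CPM, 2.03 to 2.43) and 2828 UMIs in RWPE1 (14.7 CPM, 14.1 to 15.2), a log2 ratio of −2.72 (−2.86 to −2.58). At 5000 UMIs it was in 0.983% of RWPE-ERG-mAKT cells (0.827 to 1.16) and 6.33% of RWPE1 cells (5.86 to 6.83). Unthinned, 403 RWPE-ERG-mAKT cells (2.85%) and 2083 RWPE1 cells (20.9%) held it. The 10 richest cells held 9.18% of its UMIs in RWPE-ERG-mAKT (7.58% for SPRR1B) and 2.90% in RWPE1, the lowest such share among the 10 genes in RWPE1, and 1607 of the 2083 positive RWPE1 cells held 1 UMI. TGM1 was thus spread thinly over RWPE1 cells.

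SBSN and KRTDAP encode secreted proteins of the suprabasal layers. SBSN had 109 UMIs in RWPE-ERG-mAKT (0.484 CPM) and 241 UMIs in RWPE1 (1.25 CPM), a log2 ratio of −1.37 (−1.71 to −1.04), with shares at 5000 UMIs of 0.170% in RWPE-ERG-mAKT and 0.221% in RWPE1 whose ratio of 0.77 had an interval from 0.41 to 1.44. As for IVL, the difference lay in few cells, and without the 10 richest cells the log2 ratio of SBSN was −0.15. KRTDAP had 123 UMIs in RWPE-ERG-mAKT (0.546 CPM) and 181 UMIs in RWPE1 (0.939 CPM), a log2 ratio of −0.78 (−1.12 to −0.44). One RWPE1 cell held 73 of its 181 UMIs, and without the richest cell of each library the log2 ratio was −0.06. In RWPE-ERG-mAKT no cell held more than 2 UMIs of KRTDAP, and 119 of its 121 positive cells held 1. The shares at 5000 UMIs were 0.290% in RWPE-ERG-mAKT and 0.291% in RWPE1. DMKN, the neighbour of KRTDAP and SBSN, was far more abundant, at 269 CPM in RWPE-ERG-mAKT and 168 CPM in RWPE1.

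**Figure D2:**
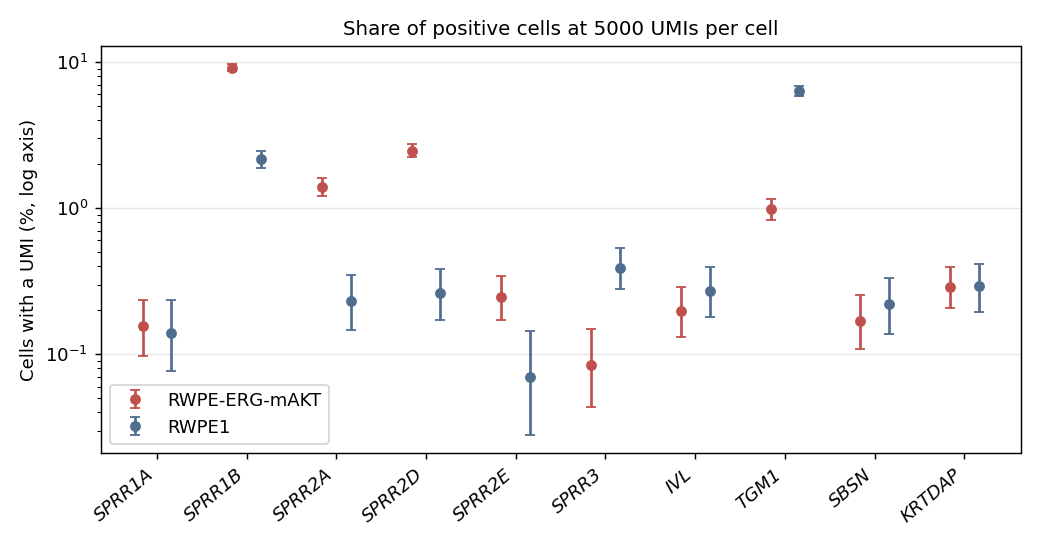
Share of cells with at least 1 UMI of each gene after every cell was thinned to 5000 UMIs, on a log axis, in 14134 RWPE-ERG-mAKT cells and 9967 RWPE1 cells. Bars are exact binomial 95% intervals. The intervals are apart for SPRR1B, SPRR2A, SPRR2D, SPRR2E, SPRR3 and TGM1, and overlap for SPRR1A, IVL, SBSN and KRTDAP.

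A background for these shares came from 53 RWPE1 barcodes with microglia or choroid plexus transcripts, taken as cells that should lack an envelope. They held 0 UMIs of the other 9 genes, which allows a share of up to 5.66%, and 2 of them held TGM1 (3.77%, 0.460 to 13.0). Their median depth was 617 UMIs, against 16972 UMIs for the RWPE1 cells, so this background is weakly bounded. Of the 53, 5 were also among the kept RWPE1 cells. Leaving these 5 out raised the log2 ratio of TGM1 from −2.72057 to −2.71959, whereas that of SPRR1B fell from 1.3902 to 1.38915. TGM1 UMIs thus lay in kept cells, so these barcodes are no separate background for TGM1, and its RWPE1 share has none here. The part of free RNA in the shares was not tested. RWPE-ERG-mAKT had 0 such barcodes.

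The make-up of the envelope transcripts changed with their number in a cell. Cells with at least 20 UMIs of the 10 genes were 77 in RWPE-ERG-mAKT (0.545% of cells, 0.430 to 0.680) and 48 in RWPE1 (0.482%, 0.355 to 0.638). They held 3745 of the 12777 UMIs in RWPE-ERG-mAKT (29.3%) and 2945 of the 6986 UMIs in RWPE1 (42.2%). In these rich RWPE-ERG-mAKT cells SPRR1B made up 45.5% of the UMIs, SPRR2A 18.8%, SPRR2D 18.7%, SPRR2E 8.33% and SPRR3 4.19%. In the rich RWPE1 cells SPRR1B made up 56.5%, SPRR3 14.6%, SBSN 7.03%, IVL 5.37%, SPRR2E 4.58%, SPRR2A 2.78% and SPRR2D 2.07%. SPRR1B thus led the pooled UMIs of the rich cells in both libraries, with SPRR2 genes next in RWPE-ERG-mAKT and SPRR3 next in RWPE1. Single cells weighed in these pooled shares. In RWPE-ERG-mAKT 1 cell held 78 of the 157 SPRR3 UMIs of the rich cells, and in RWPE1 1 cell held 110 of 430. Cells with 1 to 3 UMIs looked different: in RWPE-ERG-mAKT 62.7% of their UMIs were SPRR1B, and in RWPE1 81.9% were TGM1. SPRR3 made up 0.118% of UMIs in such RWPE-ERG-mAKT cells and 0.700% in such RWPE1 cells.

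**Figure D3:**
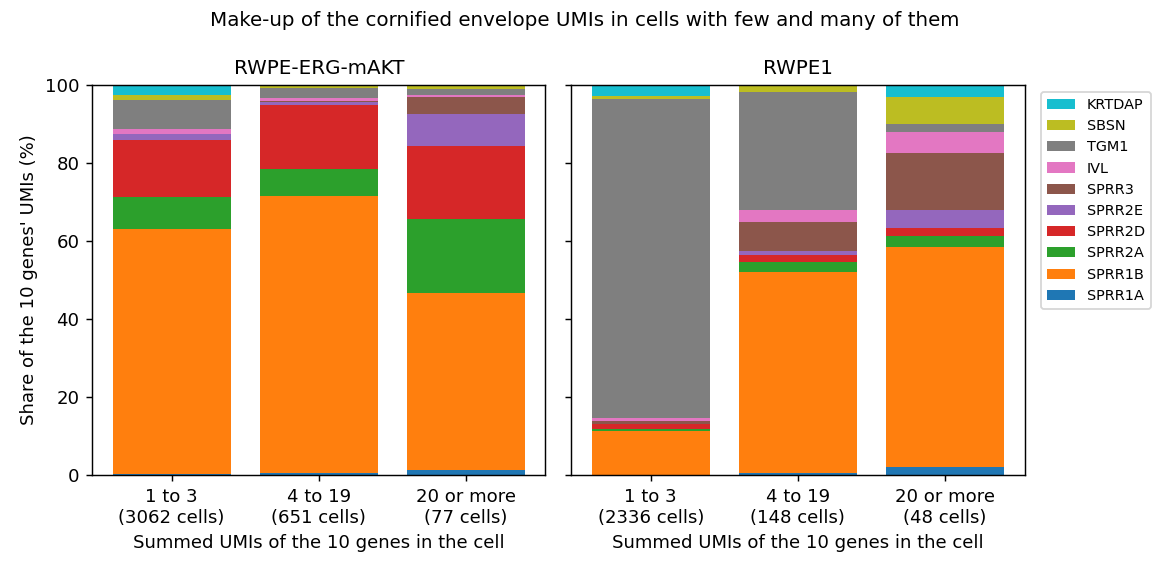
Share of each gene among the UMIs of the 10 genes, in cells grouped by how many such UMIs they held (1 to 3, 4 to 19, 20 or more), for RWPE-ERG-mAKT and RWPE1, without thinning. In cells with 1 to 3 UMIs SPRR1B fills 62.7% of the RWPE-ERG-mAKT bar and TGM1 81.9% of the RWPE1 bar, and in cells with 20 or more SPRR1B leads both.

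The richest cells of each library differed in their make-up. The richest RWPE-ERG-mAKT cell held 237 UMIs of the 10 genes, with 78 of SPRR2A, 78 of SPRR3, 53 of SPRR1B and 19 of SPRR1A. The next held 230 UMIs, of which 165 were SPRR2D and 44 SPRR2A, with 5 of SPRR1B. The third held 151 UMIs, with 57 of SPRR2D, 42 of SPRR2A, 40 of SPRR2E and 11 of SPRR1B. The richest RWPE1 cell held 580 UMIs of 8 genes, with 241 of SPRR1B, 110 of SPRR3, 73 of KRTDAP, 66 of SPRR2E and 53 of SBSN, and none of SPRR2A. The next RWPE1 cell held 154 UMIs of SPRR1B, 54 of IVL and 26 of SBSN. The third held 149 UMIs, with 46 of SPRR2E, 41 of SPRR2A, 32 of SPRR1B, 21 of SPRR2D and 8 of SPRR3, and in it the SPRR2 genes made up most of the UMIs. These 6 cells were not shallow, at 25840 to 39518 UMIs, and their mitochondrial shares were between 0.428% and 6.06%.

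Whether the genes occurred in the same cells was read at 5000 UMIs per cell. At least 1 of the 10 genes was found in 1835 RWPE-ERG-mAKT cells (12.98%, 12.43 to 13.55) and 886 RWPE1 cells (8.89%, 8.34 to 9.47). Without thinning these shares were 26.8% in RWPE-ERG-mAKT and 25.4% in RWPE1, where TGM1 alone was in 20.9% of RWPE1 cells. At least 3 of the genes were found in 56 RWPE-ERG-mAKT cells (0.396%, 0.299 to 0.514) and 34 RWPE1 cells (0.341%, 0.236 to 0.476), intervals that overlap. At 10000 UMIs per cell the intervals were apart, at 0.875% of RWPE-ERG-mAKT cells (0.705 to 1.07) and 0.383% of RWPE1 cells (0.269 to 0.530). That depth left out 3744 of 14140 RWPE-ERG-mAKT cells and 579 of 9967 RWPE1 cells as shallower. Cells with at least 3 genes at 5000 UMIs had a median of 19570 UMIs in RWPE-ERG-mAKT, against 13424 with none. In RWPE1 these medians were 14244.5 and 16910 UMIs. The set of cells thus changed with the depth, and its part was not tested. Unthinned, the shares with at least 3 genes were 1.46% in RWPE-ERG-mAKT and 0.763% in RWPE1. The most genes in 1 cell were 6 in RWPE-ERG-mAKT and 7 in RWPE1.

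More pairs of the genes passed a correlation of 0.2 in RWPE1 than in RWPE-ERG-mAKT, though many pairs rested on few cells. The correlation across cells of log2(UMIs + 1) exceeded 0.2 in 6 of the 45 pairs in RWPE-ERG-mAKT and in 22 of 45 in RWPE1, with a median of 0.05 in RWPE-ERG-mAKT and 0.19 in RWPE1. Cells of 1 library are not replicates, and the 2 sets of values were not tested against each other. The highest values in RWPE-ERG-mAKT were 0.39 for SPRR2A and SPRR2E (13 cells with both), 0.35 for SPRR2E and SBSN (2 cells with both) and 0.33 for SPRR2A and SPRR2D (48 cells with both). In RWPE1, SPRR1B and SPRR3 reached 0.46 with 29 cells holding both, which were 29 of the 39 cells with SPRR3. The highest RWPE1 value, 0.50 for SBSN and KRTDAP, rested on 4 cells with both. Other RWPE1 pairs above 0.2 rested on fewer, such as SPRR2D and SPRR2E (0.46, 3 cells) and SPRR2E and KRTDAP (0.32, 1 cell). The richest RWPE1 cell held 8 of the genes before thinning and can enter many pairs, and its part was not tested. Many SPRR1B-positive cells of RWPE-ERG-mAKT had no other gene of the set: 14.3% of them held another (12.4 to 16.3), against 35.8% of SPRR1B-positive cells in RWPE1 (29.4 to 42.6). Cells without SPRR1B held one of the others in 4.25% of RWPE-ERG-mAKT cells and 6.88% of RWPE1 cells.

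TGM1 had low correlations in RWPE1, at most 0.06 with each of the other genes. Its share of cells still differed with some of them. TGM1 was in 31.8% of the 22 SBSN-positive RWPE1 cells (13.9 to 54.9), against 6.27% of SBSN-negative cells. For SPRR2A, SPRR2D and SPRR2E the share of TGM1 was lower in the positive cells, which were few. Of the TGM1-positive RWPE1 cells 5.23% held another of the genes (3.63 to 7.27), against 2.73% of TGM1-negative cells (2.41 to 3.08). In RWPE-ERG-mAKT 29.5% of TGM1-positive cells did (22.1 to 37.8), against 12.1% of negative cells. KRTDAP-positive cells held another gene in 14.6% of cases in RWPE-ERG-mAKT (5.57 to 29.2), where KRTDAP-negative cells did in 12.7%, and in 31.0% in RWPE1 (15.3 to 50.8), where negative cells did in 8.62%.

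**Figure D4:**
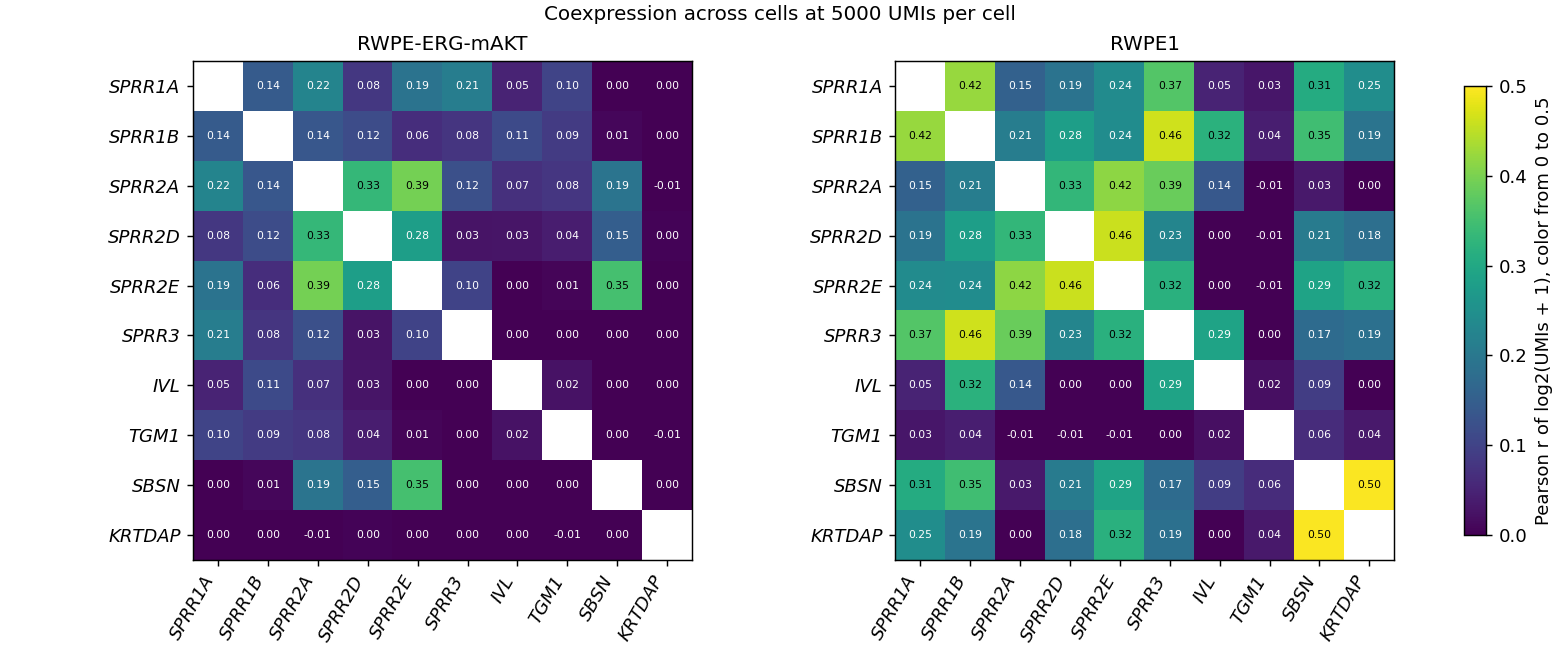
Pearson correlation across cells of log2(UMIs + 1) at 5000 UMIs per cell for each pair of the 10 genes, in RWPE-ERG-mAKT and RWPE1. Values above 0.2 fill 6 of 45 pairs in RWPE-ERG-mAKT, 3 of them among the SPRR2 genes, and 22 of 45 pairs in RWPE1, and the TGM1 row stays near 0 in RWPE1.

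Cells with at least 3 of the 10 genes were then set beside cells with none, within each library at 5000 UMIs per cell, for gene lists that hold none of the 10. PI3 (elafin), a protease inhibitor crosslinked into the envelope, stood at 879 CPM in the cells with 3 or more and 16.1 CPM in those with none in RWPE-ERG-mAKT, and at 1682 and 23.5 CPM in RWPE1. CSTA (cystatin A), another inhibitor of the envelope, stood at 507 CPM with 3 or more and 120 CPM with none in RWPE-ERG-mAKT, and at 2094 and 69.3 CPM in RWPE1. ELF3, an epithelial ETS factor, stood at 89.3 CPM with 3 or more and 9.90 CPM with none in RWPE-ERG-mAKT, and at 459 and 13.2 CPM in RWPE1. These 3 genes were higher in the cells with several envelope genes in both libraries. ELF3 was chosen after its values were seen. Among all genes with at least 20 CPM in cells with none, the 10 left out, the share past 2-fold in RWPE-ERG-mAKT cells with 3 or more was 1.92% upward and 7.29% downward, and in RWPE1 it was 7.82% upward and 18.5% downward. Of the other envelope precursors at that level, 4 of 5 were higher by more than 2-fold in RWPE-ERG-mAKT and 5 of 6 in RWPE1. In RWPE-ERG-mAKT the log2 ratio of CSTA was 2.08. Those of ANXA1 (1.01), S100A11 (1.01) and PPL (1.06) lay close to the limit, and their intervals reached below 1. Of the regulators of terminal differentiation at that level, a group ELF3 was too low to enter, 2 of 8 were higher and 1 lower in RWPE-ERG-mAKT. In RWPE1 2 of 7 were higher and 1 lower. The lower one was FOSL1 in both, from 12 UMIs in the RWPE-ERG-mAKT cells with 3 or more and 2 UMIs in those of RWPE1. Its RWPE1 log2 ratio of −1.65 had an interval from −4.69 to 0.21, which covers 0.

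The suprabasal genes had unlike levels in these cells of the 2 libraries, a contrast that was not tested. KRT13, a keratin of non-cornifying squamous epithelium, stood at 171 CPM with 3 or more genes and 5.82 CPM with none in RWPE-ERG-mAKT, and at 2653 and 184 CPM in RWPE1. KRT4, its partner keratin, had 0 UMIs in the 56 RWPE-ERG-mAKT cells, which allows up to 10.7 CPM, against 0.195 CPM in those with none. In the 34 RWPE1 cells it had 187 UMIs (1100 CPM), against 7.62 CPM in RWPE1 cells with none. Over all kept cells KRT4 stood at 0.289 CPM in RWPE-ERG-mAKT and 14.6 CPM in RWPE1. Its 0 therefore does not set the 56 cells apart from the rest of RWPE-ERG-mAKT. SPINK5, an inhibitor of the proteases that shed squames, stood at 17.9 CPM with 3 or more genes (5 UMIs) and 5.11 CPM with none in RWPE-ERG-mAKT, and at 1106 and 1.37 CPM in RWPE1. KRT4 and SPINK5 were chosen after their values were seen. As a list, suprabasal genes summed to 1068 CPM with 3 or more genes and 628 CPM with none in RWPE-ERG-mAKT, and to 7112 and 533 CPM in RWPE1.

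Genes of the G2/M phase and of the basal layer differed between these cells too. The G2/M list summed to 1225 CPM with 3 or more genes and 2505 CPM with none in RWPE-ERG-mAKT, and to 606 and 2300 CPM in RWPE1, and 7 of its 15 genes were more than 2-fold lower in RWPE-ERG-mAKT (7.29% of all genes) and 14 of 15 in RWPE1 (18.5% of all genes). The S phase list summed to 1014 CPM with 3 or more genes and 960 CPM with none in RWPE-ERG-mAKT, where 0 of its 12 genes passed 2-fold, and to 524 and 725 CPM in RWPE1, where 4 of 12 were lower. The basal list summed to 7536 CPM with 3 or more and 5579 CPM with none in RWPE-ERG-mAKT, and to 4394 and 5459 CPM in RWPE1. In RWPE1 8 of the 12 basal genes were more than 2-fold lower in the cells with 3 or more, among them the integrin gene ITGA6 (29.4 against 177 CPM, from 5 UMIs), whereas 1 of 12 was in RWPE-ERG-mAKT. KRT15 was higher, at 257 CPM with 3 or more and 60.7 CPM with none in RWPE-ERG-mAKT, and 935 and 111 CPM in RWPE1. ITGA6 and KRT15 were chosen after their values were seen. Before thinning, the median depth was 19570 UMIs with 3 or more genes and 13424 UMIs with none in RWPE-ERG-mAKT, and 14244.5 and 16910 UMIs in RWPE1, and its part in these differences was not tested beyond the thinning.

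A set of 10 genes followed the summed envelope UMIs most closely in both libraries, ranked by the lower of the 2 correlations across cells among 11845 genes. S100A8 and S100A9, which form calprotectin, had correlations of 0.26 and 0.22 in RWPE-ERG-mAKT, and 0.52 and 0.53 in RWPE1. The fatty acid carrier FABP5 had 0.25 in RWPE-ERG-mAKT and 0.24 in RWPE1, the glycerol channel AQP3 0.20 and 0.22, and the stress keratin KRT16 0.20 and 0.39. PERP, SLPI, FXYD3 and HSPB1 were also among the 10, with values from 0.15 to 0.19 in RWPE-ERG-mAKT and from 0.18 to 0.35 in RWPE1. All cells of a library share its preparation, and these values are descriptions over 14134 RWPE-ERG-mAKT cells and 9967 RWPE1 cells. S100A9 stood at 5504 CPM in RWPE-ERG-mAKT cells with 3 or more envelope genes and 136 CPM in those with none, and at 13741 and 16.3 CPM in RWPE1. Between libraries SLPI stood at 1257 CPM in RWPE-ERG-mAKT and 61.0 CPM in RWPE1.

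Over all kept cells, the genes around the envelope pathway did not follow 1 direction. Of 12 other envelope precursors with at least 50 UMIs, 2 were higher by more than 2-fold in RWPE-ERG-mAKT (LCE1C and LCE3D, late envelope proteins at 0.249 and 0.537 CPM) and 2 were lower. The 2 that were lower are plakins that tie the envelope to desmosomes: PPL stood at 41.5 CPM in RWPE-ERG-mAKT and 119 CPM in RWPE1, and EVPL at 5.70 CPM in RWPE-ERG-mAKT and 14.1 CPM in RWPE1. CSTA stood at 131 CPM in RWPE-ERG-mAKT and 78.2 CPM in RWPE1, PI3 at 26.2 CPM in RWPE-ERG-mAKT and 43.2 CPM in RWPE1, and S100A11 at 1533 CPM in RWPE-ERG-mAKT and 1072 CPM in RWPE1, all within 2-fold. Of 8 crosslinking and barrier lipid enzymes, 0 were more than 2-fold higher and 2 lower, TGM2 (0.218 CPM in RWPE-ERG-mAKT and 3.07 CPM in RWPE1) and ALOX12B (0.267 and 0.664 CPM in the same order).

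Among 19 suprabasal genes, 3 were higher by more than 2-fold in RWPE-ERG-mAKT (11.5% of all genes) and 9 lower (20.2% of all genes). KRT10, the keratin of the epidermal spinous layer, stood at 289 CPM in RWPE-ERG-mAKT and 118 CPM in RWPE1, and CALML3 at 27.0 CPM in RWPE-ERG-mAKT and 7.71 CPM in RWPE1. KRT13 stood at 7.04 CPM in RWPE-ERG-mAKT and 215 CPM in RWPE1, a log2 ratio of −4.93 (−5.01 to −4.86), and CLDN4 at 23.1 CPM in RWPE-ERG-mAKT and 12.9 CPM in RWPE1. Of 20 regulators of terminal differentiation, 6 were more than 2-fold higher and 0 lower, beside the same shares of all genes. CEBPD stood at 188 CPM in RWPE-ERG-mAKT and 61.2 CPM in RWPE1, and the AP-1 subunit FOSL1 at 85.3 CPM in RWPE-ERG-mAKT and 39.1 CPM in RWPE1, whereas NOTCH1 stood at 30.1 CPM in RWPE-ERG-mAKT and 58.1 CPM in RWPE1.

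Of 12 basal genes, 1 was more than 2-fold higher and 3 were lower, where 11.5% and 20.2% of all genes stood so. The higher one was LAMB3 (73.7 CPM in RWPE-ERG-mAKT and 33.9 CPM in RWPE1). Among the lower ones were TP63, the basal master regulator (61.7 CPM in RWPE-ERG-mAKT and 142 CPM in RWPE1), and ITGA3 (59.0 and 162 CPM in the same order). None of 15 G2/M genes passed 2-fold either way, with MKI67 at 189 CPM in RWPE-ERG-mAKT and 251 CPM in RWPE1. Of 12 S phase genes, CLSPN was higher (121 CPM in RWPE-ERG-mAKT and 52.5 CPM in RWPE1), and of 6 simple-epithelium genes KRT18 was lower (542 CPM in RWPE-ERG-mAKT and 1198 CPM in RWPE1). Markers of other cell types were low: the fibroblast list summed to 26.1 CPM in RWPE-ERG-mAKT, of which DCN made 23.1 CPM, and to 2.01 CPM in RWPE1. The endothelial list summed to 1.11 CPM in RWPE-ERG-mAKT and 0.654 CPM in RWPE1, the microglia list to 0.120 and 0.804 CPM, and the choroid plexus list to 0.155 and 1.37 CPM, in the same order.

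Cells with 200 to 2500 detected genes gave another order for the SPRR genes. There, SPRR1B stood at 42.9 CPM in RWPE-ERG-mAKT (451 UMIs in 254 cells) and 129 CPM in RWPE1 (113 UMIs in 16 cells). SPRR2A had 52 UMIs in 35 RWPE-ERG-mAKT cells and 112 UMIs in 4 RWPE1 cells, 57 of them in 1 cell, and SPRR2D stood at 14.6 CPM in RWPE-ERG-mAKT and 21.8 CPM in RWPE1. The log2 ratios in these cells were −1.59 for SPRR1B, −4.70 for SPRR2A, −0.57 for SPRR2D (−1.26 to 0.20, which covers 0) and −3.71 for SPRR2E, all opposite in sign to the deeper cells. Few cells decide them: of 362 shallow RWPE1 cells, 6 held 86.6% of the 350 envelope UMIs, whereas of 2775 shallow RWPE-ERG-mAKT cells 2 held 9.79% of 715. Cells with at least 3 of the genes were 3 of the shallow RWPE-ERG-mAKT cells (0.108%) and 7 of the shallow RWPE1 cells (1.93%). The shallow cells held 10517087 UMIs in RWPE-ERG-mAKT and 872882 UMIs in RWPE1. With shallow and deep cells together, 4 genes were more than 2-fold higher and 4 lower, as in the deep cells alone, and the log2 ratio of SPRR2A was 2.32.

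Among RWPE1 cells with over 1000 detected genes, SPRR3 and SPRR1B were lower where more genes were detected. SPRR3 stood at 106 CPM in RWPE1 cells with 1001 to 2500 genes (73 UMIs in 8 cells), 18.5 CPM with 2501 to 3500, 3.0 CPM with 3501 to 5000 and 1.56 CPM above 5000. SPRR1B stood at 143, 42.6, 12.5 and 11.7 CPM in the same RWPE1 bins. The 216 RWPE1 cells with 200 to 1000 genes broke this order, with 0 UMIs of SPRR3 (95% interval up to 19.7 CPM) and 15 UMIs of SPRR1B (80.3 CPM). In RWPE-ERG-mAKT SPRR1B stood at 41.4, 26.4, 33.5 and 38.6 CPM in these bins, with no such order. TGM1 values ran opposite to SPRR3 in these RWPE1 bins, at 7.29, 10.1, 13.2 and 15.8 CPM. The first of them came from 5 UMIs, with an interval from 2.37 to 17.0 CPM that covers the other 3. RWPE1 cells with 200 to 1000 genes broke this order too, at 10.7 CPM from 2 UMIs.

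**Figure D5:**
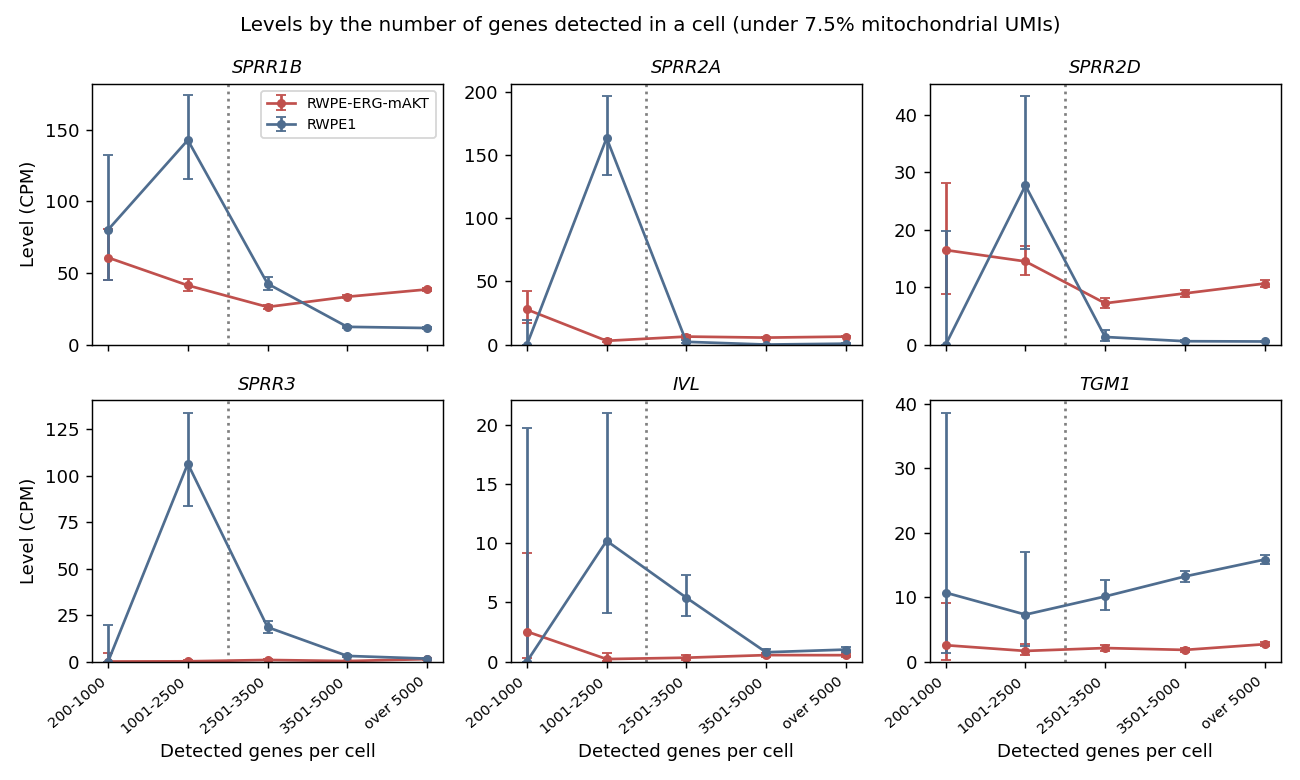
CPM of 6 of the genes in cells grouped by detected genes, in RWPE-ERG-mAKT and RWPE1, under 7.5% mitochondrial UMIs, with exact Poisson 95% intervals. The dotted line marks 2500 genes. SPRR1B, SPRR2A, SPRR2D, SPRR3 and IVL are highest in RWPE1 cells with 1001 to 2500 genes, whereas TGM1 is highest above 5000 genes.

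Within RWPE-ERG-mAKT, cells with and without an ERG UMI at 5000 UMIs were set side by side. At least 1 envelope gene was found in 12.3% of 1257 cells with ERG (10.5 to 14.2) and 13.1% of 12877 cells without (12.5 to 13.6). SPRR1B was in 8.59% of cells with ERG (7.1 to 10.3) and 9.17% without (8.68 to 9.68), and SPRR2D in 2.94% with ERG (2.08 to 4.03) and 2.42% without (2.16 to 2.70). The intervals overlap for each of the 10 genes, and a cell without an ERG UMI at this depth may still express ERG.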

How the data were processed

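Single-cell RNA was measured in 1 RWPE-ERG-mAKT and 1 RWPE1 library from 10000 input cells each (10x Chromium 3'). The deposited tables hold raw UMI counts per gene and barcode, which the authors made with Cell Ranger 7.1.0 on hg38 without normalization. Cells with over 2500 genes and under 7.5% mitochondrial UMIs were kept, and no doublet caller was run. UMIs summed per library are given as CPM. Their intervals are exact Poisson intervals, and those of ratios are exact for 2 Poisson counts. Shares carry Clopper-Pearson intervals, after thinning without replacement to 5000 UMIs (6 RWPE-ERG-mAKT and 0 RWPE1 cells were shallower). With 1 library per condition, a gene past 2-fold is a size and not a test, and intervals cover counting error only. For a count of 0, 3 counts set the upper limit.

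The 10 genes and all lists (other envelope precursors, crosslinking and barrier lipid enzymes, suprabasal differentiation, regulators of terminal differentiation, basal, G2/M phase, S phase, simple epithelium, fibroblast, endothelial, microglia, choroid plexus) were chosen with earlier results of these data known. Named were all 10 genes, up to 4 genes per list with the largest log2 ratio and at least 20 CPM in a library, and the 10 genes with the highest lower correlation among those in at least 1% of cells of both libraries. Further genes are named where a count is small, and some genes under these rules are not reported here. Barcodes with at least 2 UMIs of TYROBP and AIF1 together, or of TTR, ENPP2, OTX2 and SOSTDC1 together, were taken as brain-type. Positions are from GENCODE 29 on GRCh38 and promoters from RefSeq (GRCh38.p14). The work used numpy 2.4.6, pandas 2.3.3, matplotlib 3.10.9 and scipy 1.17.1 in Python 3.11.15, and the calculation was tested on simulated data. Alternatives changed the cell set, scaling, depth, random seed and the richest cells.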

Additional observations from a re-analysis of the deposited data

How the results depend on the processing

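Depth and cell number limit these values: 1 rich cell can move a low gene, and no replicate shows the spread between cultures. With shallow cells added, without the mitochondrial limit, with brain-type barcodes or cells over 2 times the median depth left out, with median-of-ratios scaling, with the mean over cells of UMIs per 10000, without the richest cell, with 1 CPM added, and with a second seed, the counts of genes past 2-fold stayed within 1.5 times, and the list median and shares within their intervals where recomputed. Single genes crossed 2-fold under 4 of these: SPRR2E (0.96) and IVL (−0.75) without the deepest cells, IVL with median-of-ratios scaling (−0.90) and without its richest cell (−0.83), and KRTDAP (−1.14) without the mitochondrial limit. The interval used for the list median, −0.68 to 0.12, averaged the counting intervals of its 2 middle genes, KRTDAP and SPRR1A. It does not measure the spread over the 10 genes. No paired analysis was possible because each condition is 1 library.

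In cells with 200 to 2500 genes, 8 genes were more than 2-fold lower and 0 higher when no minimum of UMIs was set, but only 4 genes reached 50 UMIs, of which 3 were lower, and the list median over those 4 was −3.15. SPRR1B (−1.59), SPRR2A (−4.70), SPRR2D (−0.57) and SPRR2E (−3.71) changed sign there, though the interval of SPRR2D covered 0. At 5000 UMIs 15.4% of 1077 such RWPE-ERG-mAKT cells held at least 1 gene and 0% at least 3, against 18.8% and 7.25% of 69 RWPE1 cells, and 2 pairs in RWPE-ERG-mAKT correlated above 0.2. In cells with over 2500 genes and 7.5% or more mitochondrial UMIs (107 in RWPE-ERG-mAKT, 1575 in RWPE1), 1 gene was lower and 2 were higher of the 5 with UMIs in both libraries, again with no minimum, with SPRR1B at −0.48. Only 4 genes reached 50 UMIs there (SPRR1B, TGM1, SBSN and KRTDAP). Of these, 0 were higher and 3 lower, counting genes without a RWPE-ERG-mAKT UMI as lower. Genes without a UMI in 1 library have no ratio there, so the list median was not computed. The shares were 13.9% and 0% in RWPE-ERG-mAKT and 11.5% and 0.700% in RWPE1, with 0 and 7 pairs above 0.2. Sums over thinned cells gave a list median of −0.73. Without the 10 richest cells per gene, a setting chosen after seeing the data, 2 genes were lower, the median was 0.47 and IVL stood at 0.085. The causes of these changes were not tested.

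Shares scale with depth. Thinned to 2000 UMIs, 6.47% and 0.134% of RWPE-ERG-mAKT cells held at least 1 and at least 3 genes, against 4.37% and 0.171% in RWPE1, with 14 pairs above 0.2 in RWPE1. At 10000 UMIs the shares were 21.7% and 0.875% in RWPE-ERG-mAKT and 15.4% and 0.383% in RWPE1. The shares with at least 3 genes then no longer overlapped in their intervals. However, 3744 RWPE-ERG-mAKT cells and 579 RWPE1 cells were left out there as shallower, so the cells compared changed too. Without thinning they were 26.8% and 1.46% in RWPE-ERG-mAKT and 25.4% and 0.763% in RWPE1, with 12 pairs above 0.2 in RWPE-ERG-mAKT.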
